A study of Mus musculus with 16 samples.

Results

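The nicotine by ethanol interaction asked, gene by gene, whether the brain response to ethanol drinking was the same in mice that drank nicotine as in mice that drank water. All 16 mice of the series entered a 2 by 2 model, and every gene that passed a filter on low counts was a member: 15592 of the 24062 genes in the count table. The interaction is the difference of differences on the log2 scale, (NE - NW) - (Water-Ethanol - WW), and 0 means that the effects of the drugs add up, that is, that their fold changes multiply. A positive value means that NE lay above the level that the single-drug groups give together, and a negative value that NE lay below it.

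The mice were singly housed adolescent females of the inbred strain C57BL/6J, 4 in each group, and all were killed on postnatal day 45 at the end of a 4 h drinking session. WW mice had water throughout. Nicotine was given to NW mice at 200 µg/ml in the bottles that stood on the cage for 22 h a day, and their session bottle held water. Water-Ethanol mice had water in those bottles and 20% (v/v) ethanol in the sessions of the last 4 days, and NE mice had both drugs. The whole brain with the cerebellum was 1 sample, so regional changes are averaged, and fewer cells of a type cannot be told apart from less RNA per cell. Both drugs were drunk freely, so the dose was not fixed for a mouse, and intake was not analysed here. The paper reports that NE mice drank more ethanol in the last session than Water-Ethanol mice and had higher blood ethanol. RNA came from a randomly selected subset of the study's mice, whose own intake is not given in the sources used here. The 2 ethanol contrasts may therefore differ in ethanol dose as well as in nicotine, and the interaction cannot be told apart from such a difference. Values per mouse are normalized counts (counts scaled to the mean effective library size), in the order WW 18, 19, 20 and 21, NW 7, 8, 10 and 11, Water-Ethanol 13, 14, 15 and 16, and NE 2, 3, 4 and 5, and drug effects are log2 differences.

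Nicotine opens nicotinic acetylcholine receptors, pentamers of alpha and beta subunits that sit largely on presynaptic terminals and raise the release of dopamine, glutamate and GABA. Ethanol has several direct targets: it enhances GABA-A and glycine receptors, inhibits NMDA-type glutamate receptors and enhances some nicotinic receptors. The drugs therefore meet on the same synapses, and both engage the stress axis and the mesolimbic dopamine system. A transcript can respond to the pair in a few ways: additively, where each drug has its own effect whatever the other does. Masking describes an effect of 1 drug that is lost when the other is present, and opposing describes an effect that changes direction.

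The promoters of Serp1, Arl5b and Sp3 are shown because these are the 3 genes with the smallest interaction p-values in the masking class described further on, and in all of them NW was the lowest group. The windows run from 250 bases before to 50 after the RefSeq start (GRCm38.p6), are written 5′ to 3′, and are chr3:58525835-58526134 on the minus strand for Serp1, chr2:15055070-15055369 on the plus strand for Arl5b and chr2:72980397-72980696 on the minus strand for Sp3. Capitals mark matches on either strand to the cyclic AMP response element (TGACGTCA), the CCAAT box (CCAAT), the GC box (GGGCGG) and the E-box (CACGTG), and no matches overlapped in these windows.

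Serp1: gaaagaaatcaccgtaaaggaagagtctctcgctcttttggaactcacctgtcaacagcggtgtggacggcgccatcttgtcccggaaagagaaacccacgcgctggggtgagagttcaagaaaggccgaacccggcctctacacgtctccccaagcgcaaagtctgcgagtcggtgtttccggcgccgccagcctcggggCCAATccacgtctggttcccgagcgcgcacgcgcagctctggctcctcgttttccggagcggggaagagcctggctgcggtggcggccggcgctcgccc
Arl5b: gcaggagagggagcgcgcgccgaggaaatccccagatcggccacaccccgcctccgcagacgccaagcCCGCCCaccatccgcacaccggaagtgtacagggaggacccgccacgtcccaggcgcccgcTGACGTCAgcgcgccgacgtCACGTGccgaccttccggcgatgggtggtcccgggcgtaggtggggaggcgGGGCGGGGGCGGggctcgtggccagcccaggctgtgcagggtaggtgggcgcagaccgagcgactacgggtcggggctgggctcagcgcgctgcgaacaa
Sp3: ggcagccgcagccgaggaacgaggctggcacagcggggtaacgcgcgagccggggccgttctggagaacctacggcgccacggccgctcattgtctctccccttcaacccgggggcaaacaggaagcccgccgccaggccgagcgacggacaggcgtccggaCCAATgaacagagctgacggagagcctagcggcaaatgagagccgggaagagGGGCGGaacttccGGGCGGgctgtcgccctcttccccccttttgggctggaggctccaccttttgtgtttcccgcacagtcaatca

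The Arl5b window held 1 cyclic AMP response element, 1 E-box and 3 GC boxes, the Serp1 window 1 CCAAT box, and the Sp3 window 1 CCAAT box and 2 GC boxes. No motif was shared by all 3. Of the 11580 tested genes with a RefSeq window, 3.07% held the cyclic AMP response element, 38.4% a CCAAT box, 62.4% a GC box and 9.78% an E-box. Among the 547 genes with a window and a positive interaction at an unadjusted p under 0.05 the shares were 3.47%, 38.8%, 65.6% and 11.3%, and among the 225 with a negative one 2.67%, 39.1%, 49.3% and 9.78%. A second sequence is shown because its gene is one of the 12 leading negative interactions: the mature miR-6236 of RefSeq, chr9:110281353-110281371 on the plus strand, with its seed (bases 2 to 8) in capitals.

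mmu-miR-6236: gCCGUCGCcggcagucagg

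No gene passed the interaction test. With edgeR's quasi-likelihood test, 0 of 15592 genes (0%) had an adjusted p under 0.05, and the smallest adjusted p was 0.577. At an unadjusted p under 0.05 there were 1054 genes (6.76%), 741 positive (4.75%) and 313 negative (2.01%). Of the other tools DESeq2 called 1 gene, Serp1 (log2 0.31, adjusted p = 0.0447), and limma-voom called 0. The same 16 mice gave 702 calls for the average ethanol effect (4.5%), 458 higher and 244 lower, and 0 for the average nicotine effect (0%), where 1599 genes had an unadjusted p under 0.05 and the smallest adjusted p was 0.168.

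The precision behind the 0 calls was a median SE of 0.101 and a median 95% interval of ± 0.211 on the log2 scale. For 12866 genes (82.5%) the interval reached less than 0.5 to either side, and for 15027 (96.4%) less than 1. The median interaction over all genes was 0.00061. The interaction and the average effects are all contrasts of the 4 group means, but the interaction gives each mean more weight. Its SE is therefore the larger in the same mice, as for Chd2 with 0.061 against 0.030 for the average ethanol effect.

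**Figure D1:**
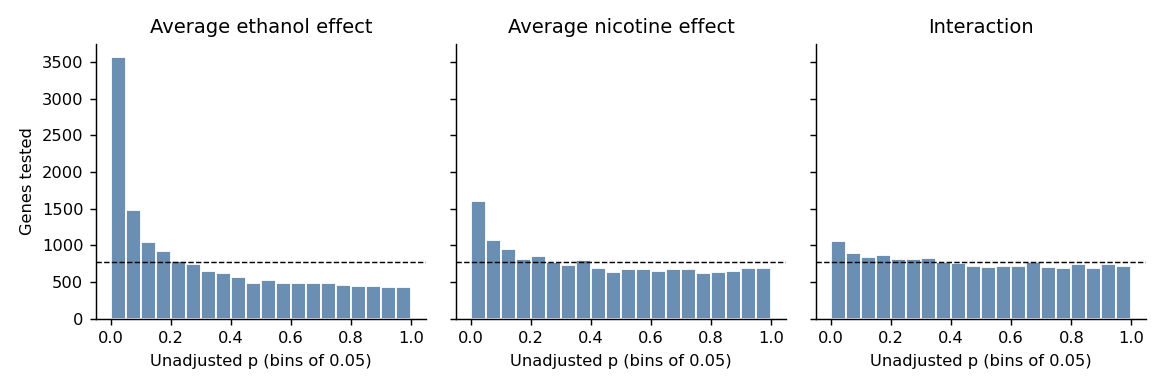
Number of genes (y axis) in each 0.05-wide bin of unadjusted p (x axis) for the average ethanol effect, the average nicotine effect and the interaction in the fit of 16 mice. The dashed line is the 779.6 genes per bin of a flat distribution, and the first bin holds 3567, 1599 and 1054 genes in that order.

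The libraries held 27100352 to 32880979 counted reads, and the total counts of the 4 groups overlapped. Some mice stood apart in what their libraries held. Rn45s, the precursor of ribosomal RNA, took 0.414% to 3.90% of the reads of NW mice and 0.274% to 0.617% of those of the other 12. Gabra6, a receptor subunit of cerebellar granule cells, had 1070 normalized counts in WW mouse 21 and 1655 in NW mouse 10, against 3423 to 4487 in the others. WW mouse 20 had 146 normalized counts of the olfactory epithelium gene Cyp2g1, and NW mouse 10 had 241 of the pituitary hormone gene Prl. Neurons, astrocytes, myelin and the choroid plexus were represented by their defining markers in all 16 mice.

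Ethanol genes had small interaction p-values about as often as other genes. Of the 702 genes called for the average ethanol effect, 659 (93.9%) had an unadjusted interaction p of 0.05 or more, and 43 (6.13%) had one under 0.05, against 6.76% of all genes tested. With groups of equal size the average effect and the interaction are separate contrasts, so choosing genes by the first does not set the direction of the second. Both use the same estimate of a gene's spread, so the choice can still favour genes of small spread. The median ethanol effect of the 458 higher genes was 0.18 without and 0.19 with nicotine, and that of the 244 lower genes -0.20 and -0.19. In 701 of the 702 the direction was the same in both, a count that choosing genes by the average effect favours. For 96 of the 702 the 95% interval of the interaction lay within the size of the gene's own average ethanol effect, and for the other 606 an interaction of that size was not excluded. The 702 calls rest on all 16 mice: leaving out WW mouse 19 or 20, Water-Ethanol mouse 15 or 16, NW mouse 8, or NE mouse 2 or 4 gave 427, 352, 307, 419, 304, 343 and 280 calls in that order. Over all genes, Pearson's r of the ethanol effect without and with nicotine was 0.283, and 0.374 in the 6262 genes with a mean of at least 1000 normalized counts, a description across genes from groups that share no mouse.

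Chd2, a chromatin remodeller of the CHD family (chr7:73426652-73541746), had the smallest p for the average ethanol effect. In WW, Chd2 had 2546, 2524, 2538 and 2465 normalized counts, compared with 2525, 2554, 2685 and 2453 in NW, 3141, 2944, 3289 and 2935 in Water-Ethanol and 3295, 3019, 3216 and 3092 in NE. Every mouse that drank ethanol lay above every mouse that did not, and NW overlapped WW. NE averaged 3155 ± 123 (SD, n = 4), and the additive level from the other groups was 3122. The ethanol effect was 0.29 without and 0.31 with nicotine, and the interaction was 0.016 ± 0.061 (adjusted p = 0.982), with a 95% interval of -0.11 to 0.14.

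Tgfb3, a ligand of the transforming growth factor beta family, and Furin, the protease that cleaves the precursors of such ligands, gave the same picture. The counts for Tgfb3 were 495, 485, 480.0 and 447 in WW, 477, 488, 450.0 and 521 in NW, 616, 589.8, 686 and 664 in Water-Ethanol and 680.1, 622, 638 and 607 in NE after normalization. For Furin the normalized counts were 1162, 1162, 1172 and 1169 in WW, 1210, 1161, 1169 and 1220 in NW, 1392, 1330, 1494 and 1483 in Water-Ethanol and 1457, 1409, 1493 and 1340 in NE. The ethanol groups did not overlap the groups without ethanol in either gene. The interaction was -0.027 ± 0.086 (adjusted p = 0.976) for Tgfb3 and -0.029 ± 0.064 (adjusted p = 0.964) for Furin. Kcnj13, which encodes an inward rectifier potassium channel of the choroid plexus, had effects of 0.62 without and 0.52 with nicotine and an interaction of -0.10 ± 0.12 (adjusted p = 0.904). Kcnj13 had 192, 224, 172 and 193 normalized counts in WW, 201, 209, 175 and 205 in NW, 324, 305, 277 and 299.6 in Water-Ethanol and 273, 275, 307 and 283 in NE. The summed choroid plexus markers (in counts per 1e+06 reads, CPM) ran from 509.5 to 827 in NW and from 605 to 793 in the other groups, and their part in Kcnj13 was not tested.

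Serinc2, a member of the serine incorporator family, was the exception among the 5 genes with the smallest ethanol p-values. In WW, Serinc2 had 171, 166, 184 and 163 normalized counts, compared with 234, 213, 225 and 198 in NW, 282, 241, 334 and 297 in Water-Ethanol and 297, 271, 315 and 281 in NE. Both single-drug groups lay above all WW mice, and NE overlapped Water-Ethanol. The nicotine effect was 0.35 without ethanol (exact permutation p = 0.0286, the smallest that 4 against 4 mice allow) and 0.014 with it (exact permutation p = 0.914). NE averaged 291 ± 18.9 against an additive level of 368, which is an interaction of -0.33 ± 0.13 (SE; 95% interval -0.60 to -0.062, adjusted p = 0.687). Serinc2 was higher with ethanol in both arms, by 0.76 and by 0.42, and both unadjusted exact permutation p-values were 0.0286. Serinc2 was chosen by its average ethanol effect in these same mice, which favours small values in both arms. These ethanol p-values are therefore a description and no separate evidence.

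**Figure D2:**
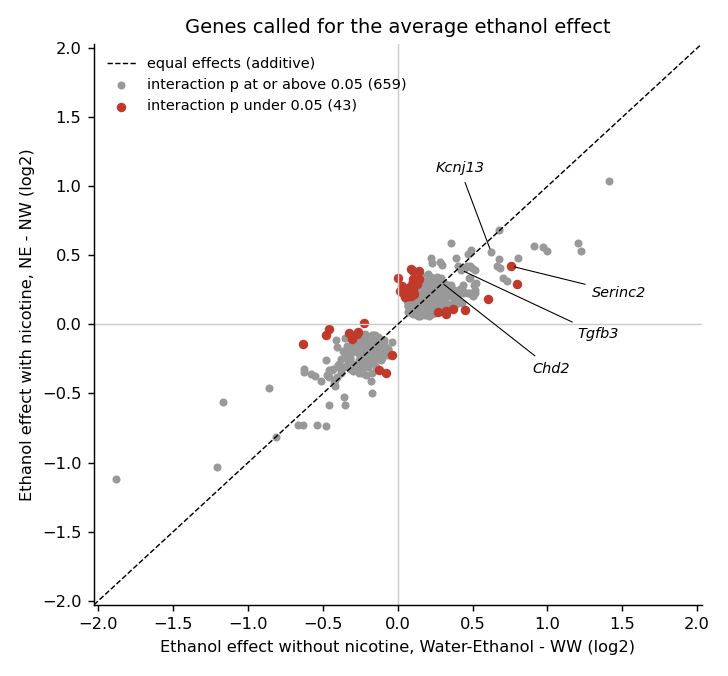
Ethanol effect with nicotine (NE - NW, log2, y axis) against the effect without nicotine (Water-Ethanol - WW, log2, x axis) for the 702 genes called for the average ethanol effect, with equal effects on the dashed line. Red points are the 43 genes with an unadjusted interaction p under 0.05, and Serinc2 lies below the line while Chd2, Tgfb3 and Kcnj13 lie near it.

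Of those 43 ethanol genes 32 had a positive interaction and 11 a negative one, while 70.3% of all genes at that interaction p were positive. In 24 of the 32 that were higher with ethanol the effect was the larger in mice that drank nicotine, and in 8 it was the smaller. In 8 of the 11 that were lower the effect was the smaller with nicotine. By pattern, 21 were masking, 18 fell in no class, 3 reached the minimum only with both drugs and 1 was opposing. Singled out after their values were seen, the 3 were Rnf217, Tnpo1 and Spred2, and the opposing gene was Gbp7, a guanylate-binding protein of the interferon response, whose nicotine effect was -0.22 without and 0.21 with ethanol. Tnr, which encodes the perineuronal net protein tenascin-R, was the only one of the 702 with effects of different sign, -0.23 and 0.0073. Zdbf2, an imprinted zinc finger gene, had the smallest interaction p of the 43, with an ethanol effect of 0.0029 in mice on water and 0.34 in mice on nicotine.

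Nicotine alone gave more calls than nicotine on top of ethanol. Nicotine, compared within the same fit, gave 112 genes (0.718%) called between NW and WW and 0 (0%) between NE and Water-Ethanol, while 28 (0.18%) were called for ethanol without nicotine and 57 (0.366%) for ethanol with it. These counts do not test the difference, which is the interaction itself. Pearson's r over genes between the nicotine effect without and with ethanol was -0.025, and 0.092 in the 6262 genes with higher counts. The 5 genes with the smallest p for the average nicotine effect, Sp3, Ppig, Spock3, St8sia4 and Gm20300, were all lower with nicotine and none was called (adjusted p = 0.168 for each), while without NW mouse 11 there were 49 nicotine calls and without NE mouse 2 14. Spock3 encodes the brain proteoglycan testican-3, St8sia4 the enzyme that adds polysialic acid to NCAM, and Ppig a nuclear cyclophilin. The counts for Spock3 were 5032, 5185, 4845 and 4664 in WW, 3301, 3963, 3905 and 4172 in NW, 4241, 4465, 4226 and 4298 in Water-Ethanol and 4353, 4108, 3960 and 4076 in NE after normalization. All 4 NW mice lay below all WW mice, and NE overlapped Water-Ethanol. Each of the 5 had a positive interaction with an unadjusted p under 0.05, from 0.16 ± 0.069 (adjusted p = 0.71) for Gm20300 to 0.30 ± 0.08 (adjusted p = 0.606) for Spock3. Of the 1599 genes with an unadjusted p under 0.05 for the average nicotine effect, 319 also had one for the interaction. Over all genes tested 1054 of 15592 (6.76%) had one, and the cause of the difference was not tested.

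The 1054 genes with an unadjusted p under 0.05 are described from here on by pattern, which is no evidence that any single one departs from additivity. Their interactions ran from -4.05 to 2.02 with a median size of 0.24. Positive ones made up 70.3%. In the 741 positive genes the median nicotine effect was -0.18 without ethanol and 0.038 with it, and the median ethanol effect -0.11 without nicotine and 0.12 with it. In the 313 negative genes the medians were 0.16 and -0.12 for nicotine, and 0.16 and -0.15 for ethanol. When each gene was asked which group lay farthest from the mean of the other 3, NW was the answer for 439 of the 1054 (41.7%), lower in 349 and higher in 90, and WW for 371 (35.2%), higher in 270. Water-Ethanol was the group apart for 125 (11.9%) and NE for 119 (11.3%). Over all tested genes the shares were 28.9% for NW, 28.9% for WW, 23.5% for Water-Ethanol and 18.7% for NE.

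The positive genes had AT-rich transcripts. Their median GC content was 42.3%, against 51.9% for the negative genes and 49.8% for all genes with a transcript in GENCODE. When genes were put in 5 equal bins of GC content, 483 in the lowest bin (15.8%) had an unadjusted p under 0.05, 455 of them positive, and 103 in the highest (3.37%), 35 of them positive. The median interaction was 0.073 in the lowest bin and -0.034 in the highest, and was 0.015 in both after each library's trend with GC content was removed. With that correction 858 genes had an unadjusted p under 0.05, 67.0% positive, and 679 of them were among the 1054.

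The ribosomal RNA precursor was also uneven. Rn45s had 393420, 216503, 1200820 and 122982 normalized counts in NW mice 7, 8, 10 and 11 and 81846 to 180699 in the other 12. With the level of Rn45s as a covariate 1065 genes had an unadjusted p under 0.05, of which 48.8% were positive and 298 were among the 1054. Without NW mice 7 and 10 there were 748, 63.4% positive, and without NW mouse 7 alone 730. Rn45s was highest in NW mice 7, 8 and 10 and had a negative interaction itself. As a covariate it therefore also takes out differences that go with NW. In that fit the Rn45s level and the NW group cannot be fully told apart, so its values here and below are a description. The part of Rn45s and GC content in the patterns was not tested beyond these fits. Within NW the median of the positive genes relative to WW was -0.332 in mouse 7 and -0.106 to -0.162 in the others, and it was -0.097 to -0.111 in Water-Ethanol and -0.042 to -0.085 in NE.

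A pattern was assigned from fitted differences with a minimum of 0.2 on the log2 scale, a masked effect being one that kept less than 50% of its size in the presence of the other drug. Masking held for 375 of the 1054 (35.6%), opposing for 139 (13.2%), a change only with both drugs for 13 (1.23%), and 527 (50%) fell in no class. Without NW mouse 7 masking counted 220 genes, without NW mouse 11 626, and without NE mouse 5 the class that needs both drugs counted 24. The classes differed in expression. The median level was 1127 normalized counts for masking and 27.8 for opposing genes, against 643 for all tested genes, and the median SE of the interaction was 0.099 and 0.321. Noncoding genes made up 20.9% of the opposing class, 6.13% of the masking class and 6.21% of all genes tested.

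**Figure D3:**
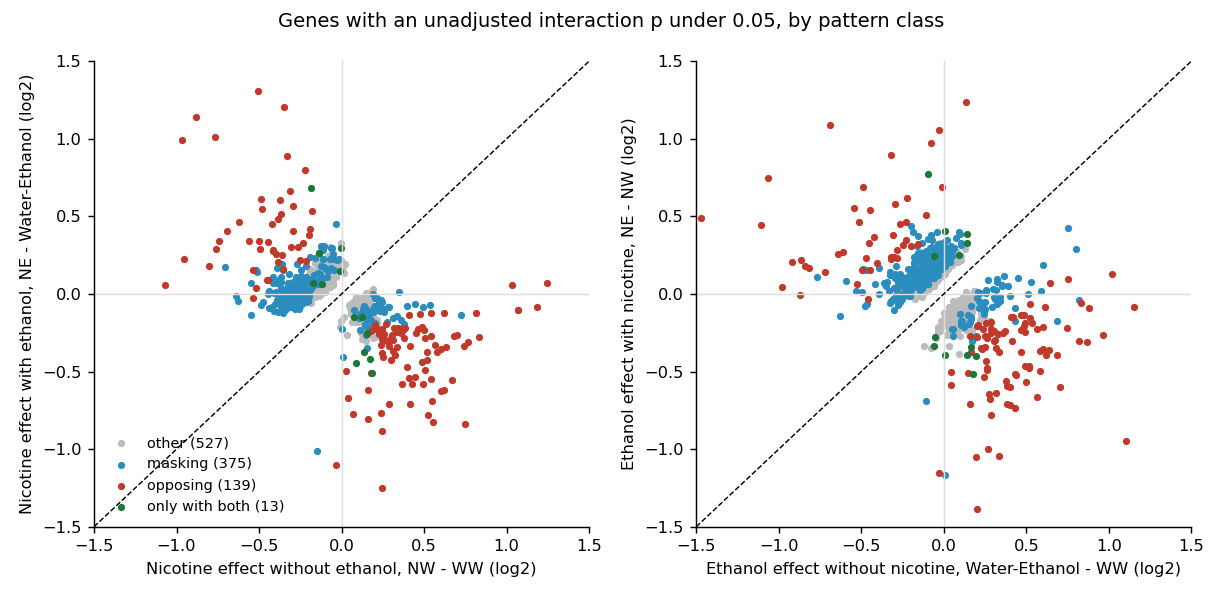
Drug effects in log2 for the 1054 genes with an unadjusted interaction p under 0.05: on the left the nicotine effect with ethanol (NE - Water-Ethanol, y axis) against the effect without (NW - WW, x axis), on the right the ethanol effect with against without nicotine. Colours give the pattern class, the dashed line marks equal effects, and 8 genes with an effect beyond 1.5 are outside the axes.

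In the masking class the masked effect was mostly that of nicotine. It was nicotine's for 300 genes, with NW the lower in 269, and ethanol's for 121, with both masked in 46. Both effects alone are measured from the same 4 WW mice, so WW values shape this class. The group farthest from the others was NW for 181 of these genes, WW for 156 and Water-Ethanol for 38. Where it was WW, masking cannot be told apart from a shift of WW alone. Serp1, which encodes a small protein of the endoplasmic reticulum that protects newly made membrane proteins under stress (chr3:58521971-58525884, minus strand), led the list. For Serp1 the normalized counts were 1895, 1986, 1881 and 1957 in WW, 1456, 1655, 1601 and 1697 in NW, 1738, 1847, 1789 and 1717 in Water-Ethanol and 1894, 1822, 1792 and 1818 in NE. All NW mice lay below all 12 others, and NE lay within the range of WW and Water-Ethanol together. The nicotine effect was -0.27 without ethanol and 0.047 with it, and the ethanol effect -0.12 without nicotine and 0.19 with it. NE averaged 1832 ± 43.8 (SD, n = 4) against an additive level of 1472, an interaction of 0.32 ± 0.064 (SE; 95% interval 0.18 to 0.45, adjusted p = 0.577). It was 0.26 with the Rn45s covariate, 0.26 with the GC correction and 0.25 without NW mice 7 and 10.

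Arl5b, a small GTPase of the Golgi (chr2:15055362-15079191), and Sp3, a zinc finger transcription factor that binds GC boxes (chr2:72936432-72980446), also had NW as the lowest group. Arl5b had 784, 784, 772 and 719 normalized counts in WW, 559, 602, 627 and 662 in NW, 718, 709, 721 and 750.0 in Water-Ethanol and 803, 723, 701 and 769 in NE. In WW, Sp3 had 2366, 2309, 2249 and 2222 normalized counts, compared with 1683, 1836, 1835 and 1999 in NW, 2123, 2121, 2176 and 2185 in Water-Ethanol and 2240, 2075, 2047 and 2100 in NE. NW did not overlap any other group in either gene, while WW, Water-Ethanol and NE lay close together. The interaction was 0.37 ± 0.08 (SE; 95% interval 0.20 to 0.54, adjusted p = 0.577) for Arl5b and 0.29 ± 0.065 (SE; 95% interval 0.15 to 0.43, adjusted p = 0.577) for Sp3. The nicotine effect was -0.32 without and 0.049 with ethanol for Arl5b, and -0.31 and -0.024 for Sp3.

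Ythdf3, a reader of N6-methyladenosine in messenger RNA, and Cnot6l, a catalytic subunit of the CCR4-NOT deadenylase, both act on mRNA turnover. The counts for Ythdf3 were 3383, 3517, 3241 and 3373 in WW, 2182, 2645, 2682 and 2823 in NW, 3100, 3086, 3188 and 3038 in Water-Ethanol and 3264, 2838, 3020 and 3029 in NE after normalization. For Cnot6l the normalized counts were 2641, 2594, 2429 and 2332 in WW, 1658, 1985, 1961 and 2117 in NW, 2408, 2325, 2413 and 2296 in Water-Ethanol and 2537, 2139, 2314 and 2467 in NE. In both the 4 NW mice were the 4 lowest of the 16, with mouse 7 the lowest. Their transcripts had 38.4% GC for Ythdf3 and 37.6% for Cnot6l, and a part of GC content in these values was not tested. The interaction was 0.36 ± 0.086 (adjusted p = 0.577) for Ythdf3 and 0.38 ± 0.092 (adjusted p = 0.577) for Cnot6l. Bmpr2, the type II receptor for bone morphogenetic proteins, had an interaction of 0.37 ± 0.088 (adjusted p = 0.577), and its NW values of 7346, 9324, 8571 and 9405 overlapped Water-Ethanol at 9340, 9109, 9887 and 9226. Zdbf2 had 1663, 1913, 1910 and 2016 in NW against 2269, 2406, 2244 and 2166 in WW and an interaction of 0.33 ± 0.079 (adjusted p = 0.577). Zbtb41, a zinc finger gene, had an interaction of 0.38 ± 0.094 (adjusted p = 0.577), with a nicotine effect of -0.38 without ethanol and 0.0059 with it.

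WW rather than NW lay farthest from the other groups in Slc7a11, 9630013A20Rik and A130077B15Rik. Slc7a11 encodes the cystine-glutamate exchanger, which supplies astrocytes with cystine and releases glutamate. Slc7a11 had 2421, 2427, 2706 and 2852 normalized counts in WW, 2077, 2205, 2125 and 2351 in NW, 2517, 2235, 2226 and 2256 in Water-Ethanol and 2486, 2526, 2300 and 2490 in NE. NW lay below WW without overlap, while Water-Ethanol mouse 13 and NE reached into the range of WW, and the interaction was 0.33 ± 0.082 (adjusted p = 0.577). The noncoding transcript 9630013A20Rik, annotated as antisense (chr14:84458838-84476424), had 161, 217, 189.6 and 238 in WW, 129, 147, 161 and 127 in NW, 125, 141, 137 and 131 in Water-Ethanol and 150.4, 142, 143 and 159 in NE. All WW mice lay above the 12 others, though WW mouse 18 and NW mouse 10 both round to 161, and the interaction was 0.67 ± 0.16 (adjusted p = 0.577). Whether reads were counted by strand is not given in the sources used here, so its reads and those of an overlapping gene cannot be told apart. Among negative masking genes the noncoding A130077B15Rik had the smallest p, with 176, 182, 156 and 169 in WW, 239.6, 227, 216 and 193 in NW, 239, 209, 265 and 210.3 in Water-Ethanol and 209.7, 187, 203 and 222 in NE. Each drug alone gave values above all WW mice, NE overlapped both, and the interaction was -0.52 ± 0.13 (adjusted p = 0.577).

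**Figure D4:**
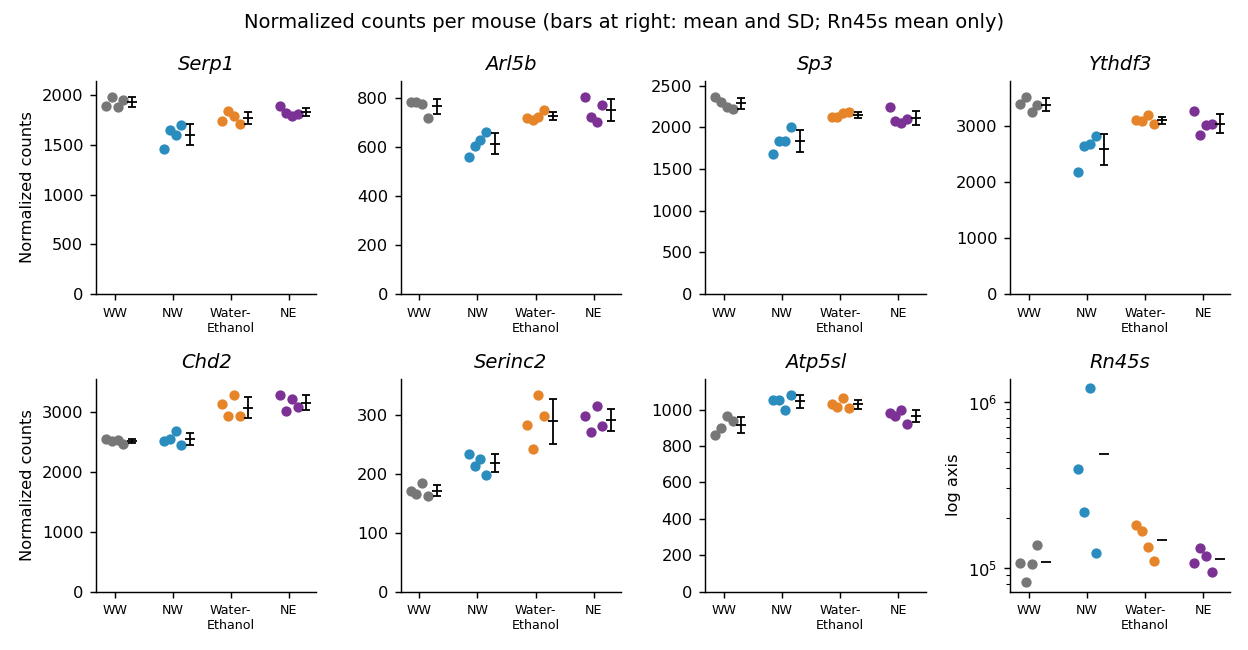
Normalized counts (y axis, from 0 except the log axis of Rn45s) of 8 genes in each of the 16 mice by group, with bars for the mean and SD of 4 mice and a mean only for Rn45s. In Serp1, Arl5b, Sp3 and Ythdf3 the NW mice are lowest, in Chd2 the ethanol groups are higher than the groups without ethanol, and in Rn45s 3 NW mice lie above all others.

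Opposing patterns were mostly those of scarce transcripts. Snord15b, a box C/D small nucleolar RNA that guides ribosomal RNA modification (chr7:99479563-99479707), had the largest negative interaction of the 1054. In WW, Snord15b had 5.4, 1.92, 2.93 and 9.44 normalized counts, compared with 34.9, 21, 81.9 and 19 in NW, 5.99, 6.95, 9.22 and 17 in Water-Ethanol and 6.38, 2.2, 5.95 and 3.04 in NE. All NW mice lay above all 12 others. The ethanol effect was 0.99 without and -3.06 with nicotine, and the interaction was -4.05 ± 0.89 (SE; 95% interval -5.92 to -2.18, adjusted p = 0.577). NW mouse 10, which had the most Rn45s, also had the most Snord15b. The interaction was -2.53 with the Rn45s covariate and -3.11 without NW mice 7 and 10, and with marker scores as covariates it was called (-4.43, adjusted p = 0.0272).

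Rn45s itself (chr17:39842997-39848829 in the count table) and Mir6236, whose mature sequence is shown above, shared that order of NW mice. The counts for Mir6236 were 775, 1076, 982 and 922 in WW, 1897, 1567, 3844 and 1260 in NW, 1185, 1070, 1223 and 1042 in Water-Ethanol and 1205, 1148, 1021 and 894 in NE after normalization. NW lay above all other mice, and mouse 10 was far the highest. The interaction was -1.27 ± 0.33 (SE; 95% interval -1.96 to -0.57, adjusted p = 0.606) for Mir6236 and -2.55 ± 0.62 (SE; 95% interval -3.85 to -1.25, adjusted p = 0.577) for Rn45s, and with the Rn45s covariate that of Mir6236 was -0.23 (adjusted p = 0.866). Without NW mouse 10 the interactions were -0.83 for Mir6236 and -1.57 for Rn45s. On the FPKM values, where NW mouse 10 is listed at 0, that of Rn45s was 1.17 with a pseudocount of 1 and 2.00 with 0.1. Lars2, the mitochondrial leucyl-tRNA synthetase gene, had 108058, 85882, 252356 and 69285 in the 4 NW mice and 51308 to 67550 in the other 12, with mouse 10 again the highest. Reads of ribosomal RNA come from many near-identical copies, so where they were counted is uncertain.

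Gm10754, a long intergenic RNA, was the leading positive gene of the opposing class. For Gm10754 the normalized counts were 84.3, 93.1, 82.1 and 91.3 in WW, 47.2, 59.3, 65.5 and 66 in NW, 54.9, 41.7, 56.4 and 72.2 in Water-Ethanol and 65.6, 70.3, 65.5 and 83 in NE. WW lay above both single-drug groups without overlap, NE overlapped all 3, and the interaction was 0.90 ± 0.21 (adjusted p = 0.577). Gm17821, a processed pseudogene whose reads may belong to its parent gene, had 143, 127, 114 and 149 in WW, 189, 187, 224 and 155 in NW, 197, 177, 215 and 158 in Water-Ethanol and 175, 146, 151 and 162 in NE. WW was the lowest group, its interaction was -0.73 ± 0.17 (adjusted p = 0.577), and with the Rn45s covariate it was -0.43. Oas2, an interferon-induced enzyme that makes 2-5 oligoadenylates, was low in every group. Oas2 had 9.73, 17.3, 7.82 and 16.8 normalized counts in WW, 20.7, 20.1, 18.6 and 15.4 in NW, 23, 21.8, 20.5 and 19.1 in Water-Ethanol and 12.8, 15.4, 9.92 and 11.1 in NE. Water-Ethanol lay above WW and NE without overlap, and the interaction was -1.31 ± 0.34 (adjusted p = 0.606), or -0.17 on log2(FPKM + 1), where its values are small beside the pseudocount. Nostrin, which controls where endothelial nitric oxide synthase sits in the cell, had 129.8, 141, 132 and 118 in Water-Ethanol against 90.8, 93.1, 107 and 99.7 in WW and an interaction of -0.57 ± 0.15 (adjusted p = 0.646).

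Only 13 genes reached the minimum with both drugs and with neither alone, 6 with a positive and 7 with a negative interaction. Cdsn, the gene for the skin adhesion protein corneodesmosin, led them at low counts. In WW, Cdsn had 17.3, 41.3, 22.5 and 27.3 normalized counts, compared with 21.7, 25.8, 21.8 and 26.2 in NW, 23, 25.8, 24.6 and 28.7 in Water-Ethanol and 41, 41.7, 45.7 and 35.4 in NE. NE lay above NW and Water-Ethanol without overlap, but WW mouse 19 reached 41.3, and the interaction was 0.87 ± 0.30 (adjusted p = 0.678), or 0.58 without that mouse. Pdia5, a protein disulphide isomerase, went the other way. The counts for Pdia5 were 57.3, 60.4, 54.7 and 82.9 in WW, 92.4, 50.7, 80.8 and 66 in NW, 72.9, 83.4, 70.7 and 60.6 in Water-Ethanol and 62.9, 47.2, 46.6 and 44.5 in NE after normalization. NE overlapped the other groups through mouse 2, and the interaction was -0.69 ± 0.26 (adjusted p = 0.682), or -0.32 with the Rn45s covariate and -0.39 without NW mice 7 and 10. Rnf217, a ubiquitin ligase gene, also belonged to the genes called for ethanol: its ethanol effect was 0.14 without and 0.38 with nicotine. For Rnf217 the normalized counts were 404, 428, 430.1 and 362 in WW, 368, 379, 345 and 348 in NW, 450.5, 453, 458 and 429 in Water-Ethanol and 453, 506, 455 and 468 in NE. Both ethanol groups lay above NW, Water-Ethanol mouse 16 lay just under WW mouse 20, and the interaction was 0.24 ± 0.088 (adjusted p = 0.678), or 0.15 with the GC correction.

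Of the genes in no class, Atp5sl, an assembly factor of respiratory complex I, had the smallest p. Atp5sl had 860.5, 899.9, 963 and 936 normalized counts in WW, 1053, 1051, 997 and 1082 in NW, 1028, 1016, 1063 and 1009 in Water-Ethanol and 983, 962, 996 and 919 in NE. WW lay below both single-drug groups without overlap, and NE lay below both and overlapped WW. Its interaction was -0.29 ± 0.064 (SE; 95% interval -0.42 to -0.15, adjusted p = 0.577). Mmp16, a membrane-bound matrix metalloproteinase, and Rab11fip2, a partner of Rab11 in recycling endosomes, had positive interactions of 0.32 ± 0.078 (adjusted p = 0.577) and 0.29 ± 0.072 (adjusted p = 0.577). In WW, Mmp16 had 904, 929, 948 and 836 normalized counts, compared with 723, 813, 814 and 827 in NW, 840.0, 770.5, 848 and 833 in Water-Ethanol and 873, 892, 885 and 963 in NE. For Mmp16 NW lay below WW and NE, with mouse 7 the lowest of the 16. Among the other leading negative genes, Lsm3 is a subunit of the ring that binds U6 small nuclear RNA, Pwp2 a ribosome biogenesis factor, Wrap53 a Cajal body protein and Wdr92 a factor in dynein assembly. Their interactions were -0.40 ± 0.11 (adjusted p = 0.606), -0.25 ± 0.068 (adjusted p = 0.646), -0.33 ± 0.091 (adjusted p = 0.651) and -0.31 ± 0.082 (adjusted p = 0.606) in that order. The counts for Lsm3 were 283, 280.1, 268 and 316 in WW, 340.5, 308, 359 and 322 in NW, 339, 354, 296 and 299.6 in Water-Ethanol and 293, 280.1, 276 and 279 in NE after normalization. NW and Water-Ethanol were the higher groups for Lsm3, and NE was level with WW. With the Rn45s covariate the interaction of Lsm3 was -0.25.

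The receptors that the drugs act on were described from lists. None of the 9 nicotinic subunits tested had an unadjusted p under 0.05. The main brain subunits Chrna4 and Chrnb2 had interactions of -0.0051 ± 0.064 (adjusted p = 0.994) and -0.013 ± 0.05 (adjusted p = 0.983), with 95% intervals of -0.14 to 0.13 and -0.12 to 0.093. Chrna5, an accessory subunit, had the smallest p of the 9. For Chrna5 the normalized counts were 73.5, 83.5, 75.3 and 101 in WW, 66, 77.4, 73.2 and 76.9 in NW, 74.9, 86.4, 73.8 and 89.2 in Water-Ethanol and 97.5, 108, 88.3 and 72.9 in NE. The groups overlapped, and the interaction was 0.36 ± 0.19 (adjusted p = 0.772).

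Of 13 GABA-A receptor subunits 3 had an unadjusted p under 0.05, all positive (4.75% of all genes), 0 were called, and the list's median was 0.084 beside 0.00061 for all genes. They were Gabrb1, Gabrb2 and Gabrg1, beta and gamma subunits that form the chloride channel together with alpha subunits. Gabrb1 had 985, 966, 1085 and 996 normalized counts in WW, 881, 1042, 1014 and 1064 in NW, 919, 904, 902 and 921 in Water-Ethanol and 971, 1059, 1031 and 1069 in NE. WW lay above Water-Ethanol without overlap, NW mouse 7 was the lowest, and the interaction was 0.19 ± 0.08 (SE; 95% interval 0.024 to 0.36, adjusted p = 0.71). The interactions were 0.20 ± 0.087 (adjusted p = 0.714) for Gabrb2 and 0.17 ± 0.076 (adjusted p = 0.711) for Gabrg1. Without NW mice 7 and 10 they were 0.11 for Gabrb1, 0.082 for Gabrb2 and 0.11 for Gabrg1, and with the Rn45s covariate 0.070 for Gabrb2 and 0.055 for Gabrg1. The list's transcripts had a median GC content of 42.9%. With the GC correction 1 subunit was under 0.05 and the median was 0.046, with the Rn45s covariate 0 were positive and 2 negative at that level, and without NW mouse 7 there were 0.

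Of 23 glutamate receptor genes 3 had an unadjusted p under 0.05, all positive (4.75% of all genes), and the median was 0.016. Grin2b and Grin2a encode the regulatory subunits of NMDA receptors, which ethanol inhibits, and Grm5 a metabotropic receptor. In WW, Grin2b had 3686, 3776, 3780 and 3075 normalized counts, compared with 2812, 4105, 3633 and 3463 in NW, 2835, 2478, 2743 and 2665 in Water-Ethanol and 3100, 4075, 3551 and 3949 in NE. Water-Ethanol mice 14, 15 and 16 were the lowest of the 16, and mouse 13 came next but for NW mouse 7. The ethanol effect was -0.42 without nicotine (exact permutation p = 0.0286) and 0.066 with it (exact permutation p = 0.657), and NE averaged 3669 ± 439.6 against an additive level of 2623. The interaction was 0.48 ± 0.14 (SE; 95% interval 0.19 to 0.77, adjusted p = 0.651). The counts for Grin2a were 2091, 2177, 1999 and 1678 in WW, 1551, 2054, 2133 and 1935 in NW, 1776, 1611, 1586 and 1553 in Water-Ethanol and 1652, 2141, 1930 and 2083 in NE after normalization. Water-Ethanol was the lower group again for Grin2a, with overlap, and the interactions were 0.31 ± 0.14 (adjusted p = 0.713) for Grin2a and 0.24 ± 0.085 (adjusted p = 0.678) for Grm5. With the GC correction 3 of the 23 genes were under 0.05, and with the Rn45s covariate 5, all positive.

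**Figure D5:**
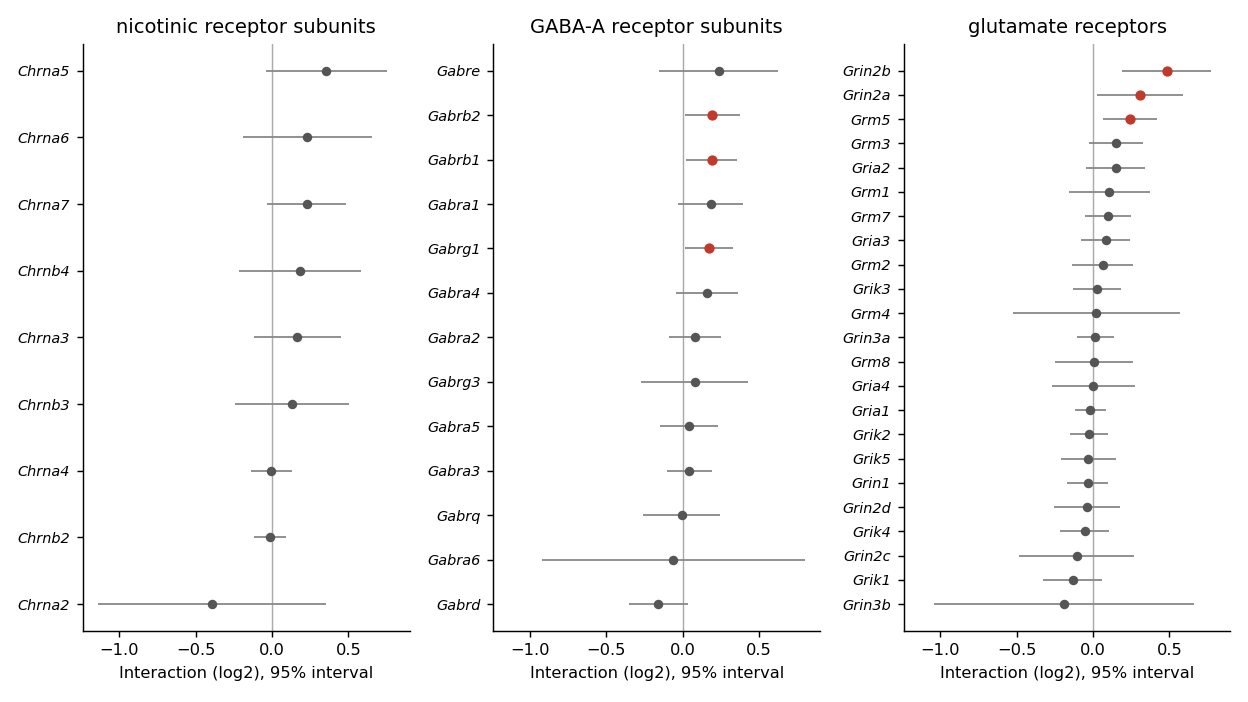
Interaction in log2 (x axis) with its 95% interval for each nicotinic, GABA-A and glutamate receptor gene tested (y axis, ordered by value). Red points have an unadjusted p under 0.05: 0 of 9, 3 of 13 and 3 of 23, and none passed the test over all genes.

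Activity-regulated genes, which neurons switch on within minutes of firing, had the highest median of the lists of function at 0.22, with 16 of 19 positive, but 0 had an unadjusted p under 0.05. Fos, a transcription factor of that group, shows the spread. For Fos the normalized counts were 993, 993, 849.5 and 934 in WW, 655, 379, 962 and 968 in NW, 1017, 859, 1042 and 825 in Water-Ethanol and 934, 965, 1018 and 825 in NE. NW mice 7 and 8 were the lowest of the 16 and the other 14 overlapped, and the interaction was 0.35 ± 0.26 (adjusted p = 0.849). The same mice were the lowest for Egr2, at 159 and 111, and its interaction was 0.48 ± 0.29 (adjusted p = 0.806). Homer1, a scaffold of glutamate receptors, had the smallest p of the list, 0.32 ± 0.15 (adjusted p = 0.74).

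Glucocorticoid-responsive genes leaned the other way, with 13 of 15 negative and a median of -0.10 beside 0.00061 for all genes. With the GC correction 11 were negative (median -0.068), with marker scores as covariates 10 (-0.070) and with the Rn45s covariate 12 (-0.12). There were 11 (-0.15) without WW mice 20 and 21 and 13 (-0.16) without NW mice 7 and 10. In the main fit 1 gene had an unadjusted p under 0.05 (2.01% of all genes were negative at that level). That gene was Hif3a, a hypoxia-inducible factor subunit. Hif3a had 235, 147, 109 and 121 normalized counts in WW, 113, 90.8, 242 and 196 in NW, 174, 209.5, 244 and 215 in Water-Ethanol and 153, 83.5, 132 and 120.5 in NE. NE lay below Water-Ethanol without overlap, WW and NW were spread over both, and the interaction was -0.84 ± 0.38 (adjusted p = 0.718), or -0.52 without WW mice 20 and 21. Of 18 stress and hypothalamic peptide genes, Pomc was negative and Adcyap1 positive at that level. Of 16 clock genes, Clock was positive at 0.16 ± 0.066 (adjusted p = 0.71) and Nr1d1, a repressor of the clock, negative at -0.20 ± 0.088 (adjusted p = 0.715). With the Rn45s covariate these were 0.10 for Clock and -0.10 for Nr1d1. Of the lists for dopamine and striatal genes (15 tested), osmolyte transport (6), heat and cold shock (9) and ethanol metabolism (9), 0 genes had an unadjusted p under 0.05, and the medians ran from -0.041 to 0.043. In the osmolyte list 4 of 6 were called for the average ethanol effect, against 4.5% of all genes tested. One of them was Slc38a2, an amino acid transporter that cells induce under hyperosmotic stress, with ethanol effects of 0.49 without and 0.54 with nicotine and an interaction of 0.048 ± 0.20 (adjusted p = 0.984), whose 95% interval ran from -0.36 to 0.46.

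Markers of cell types gave few genes at that level. Of 11 markers of olfactory bulb and newborn neurons 3 were positive at an unadjusted p under 0.05 (4.75% of all genes), Dlx2, Sp8 and Shisa3, and the median was 0.23. Dlx2 and Sp8 are transcription factors of the interneurons that migrate to the bulb. In WW, Sp8 had 361, 319, 357 and 364 normalized counts, compared with 230.1, 269.6, 326 and 164 in NW, 305, 302, 189 and 202 in Water-Ethanol and 327, 259, 200.5 and 312 in NE. WW lay above Water-Ethanol without overlap, and the other groups were spread widely. The interactions were 0.52 ± 0.20 (adjusted p = 0.678) for Dlx2, 0.65 ± 0.26 (adjusted p = 0.705) for Sp8 and 0.62 ± 0.28 (adjusted p = 0.713) for Shisa3. With marker scores as covariates they were 0.30, 0.33 and 0.32, and with the Rn45s covariate 0.86, 1.2 and 0.96. One of the marker scores is the mean of these 11 markers, which include the 3 genes themselves. Smaller values in that fit were therefore favoured in advance and are no check. The sum of the 11 markers ran from 301.4 to 319.7 CPM in WW, 250.8 to 301.5 in NW, 225 to 335 in Water-Ethanol and 244 to 320.3 in NE, and its part in these values was not tested.

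All 6 olfactory epithelium markers had positive interactions, median 1.40, with 0 under 0.05. Their sum was 32.1 CPM in WW mouse 20 and at most 12.8 in the other mice, and without WW mice 20 and 21 the median was -0.095. All 10 myelin markers were positive, median 0.10, and Cldn11, a tight junction protein of myelin, had the only unadjusted p under 0.05, 0.22 ± 0.10 (adjusted p = 0.711). In the cerebellar, choroid plexus, ependymal, meningeal, endothelial, microglia, astrocyte and neuron lists 0 genes reached it, and the medians ran from -0.17 to 0.044. With the Rn45s covariate 6 of 9 cerebellar markers were negative at that level and the median was -0.93, and without WW mice 20 and 21 all 9 were positive with a median of 0.19 and 0 at that level. In the main fit their median was -0.060. NW mouse 10, which had the most Rn45s, had 508 CPM of the summed cerebellar markers, against 1211 to 1307 in the rest of NW. WW mouse 21 had 330 CPM, and the part of these mice in the fits was not tested. Alas2 was the only red blood cell gene tested, -0.27 ± 0.34 (adjusted p = 0.915), and the globin genes of that list (Hba-a1, Hba-a2, Hbb-bs and Hbb-bt) are listed at 0 in every mouse. None of the 7 pituitary markers passed the filter, and in the list of nuclear and ribosomal RNA Rn45s alone reached it among 5.

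Genes that the study discusses were chosen by its authors on these same mice, so their count is not independent evidence of a direction. Of 45 tested, 7 were positive and 1 negative at an unadjusted p under 0.05 (4.75% and 2.01% of all genes), and the median was 0.066 beside 0.00061 for all genes. With the GC correction 6 were positive and 1 negative, and with the Rn45s covariate 3 and 2. Without NW mice 7 and 10 there were 4 positive and 0 negative. Cav2, which encodes the membrane protein caveolin-2 (chr6:17281185-17289130), had the smallest p. The counts for Cav2 were 1476, 1486, 1405 and 1617 in WW, 858, 1142, 1103 and 1282 in NW, 1098, 1220, 1178 and 1277 in Water-Ethanol and 1242, 1146, 1158 and 1218 in NE after normalization. Every WW mouse lay above the 12 others, NW mouse 7 was the lowest, and NE lay with Water-Ethanol. Each drug alone had a negative effect, -0.45 for nicotine and -0.33 for ethanol, and NE averaged 1191 ± 46.3 against an additive level of 875. The interaction was 0.45 ± 0.12 (SE; 95% interval 0.19 to 0.70, adjusted p = 0.629).

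Kcnb2, a voltage-gated potassium channel, and Igf1, insulin-like growth factor 1, were also in the masking class. For Kcnb2 the normalized counts were 623, 599, 566 and 540.3 in WW, 423, 557, 564 and 499 in NW, 506, 459.7, 404 and 448 in Water-Ethanol and 509.6, 601, 449 and 590.1 in NE. Igf1 had 489, 503, 534 and 548 normalized counts in WW, 325, 451, 439 and 440.3 in NW, 489, 485, 421 and 505 in Water-Ethanol and 508, 445, 434 and 528 in NE. WW lay above Water-Ethanol for Kcnb2 and above NW for Igf1, both without overlap. The interactions were 0.43 ± 0.14 (adjusted p = 0.67) and 0.34 ± 0.13 (adjusted p = 0.687). Adcyap1, the gene of the neuropeptide PACAP, had 0.19 ± 0.083 (adjusted p = 0.713). Pomc, the precursor of beta-endorphin and ACTH, was the negative one. In WW, Pomc had 25.9, 31.7, 28.3 and 30.4 normalized counts, compared with 49, 40.1, 85.2 and 33.5 in NW, 44.9, 43.7, 36.9 and 25.5 in Water-Ethanol and 44.7, 23.1, 38.7 and 31.4 in NE. NW lay above WW without overlap, mouse 10 was the highest, and the interaction was -0.94 ± 0.38 (SE; 95% interval -1.74 to -0.13, adjusted p = 0.709). Mouse 10 was also the one with pituitary transcripts, at 14.2 CPM for the summed pituitary markers against 0.194 to 0.398 in the other NW mice, and without it the interaction of Pomc was -0.61. The Pomc interaction was -0.46 without NW mice 7 and 10 and -0.017 with the Rn45s covariate, which was itself highest in NW.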

How the data were processed

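RNA-seq of whole brain was analysed in 16 mice, 4 per group as given by the labels. Per the labels and methods, the authors trimmed 150-base single reads (Trimmomatic 0.32), aligned them with TopHat2 to GRCm38 and deposited raw counts per gene. The authors also deposited FPKM from the Cufflinks tools, scaled for transcript length and library size, which are used here only as an alternative. Which program counted the reads, and whether by strand, is not given in the sources used here, and the labels and the methods name different library kits.

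Counts were normalized by TMM and tested in 1 fit of 16 mice with edgeR 4.0.16 (R 4.3.3; filterByExpr, quasi-likelihood test, Benjamini-Hochberg adjustment, threshold 0.05). Normalized counts are counts scaled to the mean effective library size. Single drug effects were also compared by an exact two-sided permutation test on log2(normalized count + 0.5), which cannot go below 0.0286 with 4 against 4 mice. No exact test of the interaction was made. Intervals are 95% intervals from the fit. Figures were drawn with matplotlib 3.10.9.

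Genes were named by rule: the 12 positive and 12 negative interactions with the smallest p, the 3 with the smallest p in each pattern class, the 5 with the smallest p for each average effect, and members of the gene lists. Some members of the GABA-A receptor list are not reported here and were left out of its counts. Members, lists and rules were chosen with earlier results of these data known. Alternatives were RLE factors, DESeq2 1.42.0, limma 3.58.1, robust hyperparameters, other filters and class minimums, FPKM values, marker scores as covariates and a GC correction. Separate fits left out each mouse in turn, or WW mice 20 and 21. The marker scores were mean log levels of the cerebellar list and of the olfactory bulb list. The Rn45s covariate and the fit without NW mice 7 and 10 were added after the data were examined. Transcript GC content came from GENCODE for GRCm38, for 15296 of the tested genes. The test was run on simulated data with known changes.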

Additional observations from a re-analysis of the deposited data

Results flagged for a closer look

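Levels of the genes named by p-value and the summed marker levels of the cell-type lists were compared within each group, and 9 of 204 groups of 4 had 1 mouse far from the rest by Dixon's criterion, which chance alone meets in about 1 group in 20. Among genes these were Mmp16 in NW mouse 7, which had 723 normalized counts while the rest of NW had 813 to 827, Slc7a11 in Water-Ethanol mouse 13, at 2517 against 2226 to 2256, and Pdia5 in NE mouse 2, at 62.9 against 44.5 to 47.2. Among marker sums, in CPM, NW mouse 10 was low in cerebellar neuron markers, at 508 against 1211 to 1307, and high in pituitary markers, at 14.2 against 0.194 to 0.398. WW mouse 20 was high in olfactory epithelium markers, at 32.1 against 8.16 to 11.3, and WW mouse 19 in pituitary markers, at 2.14 against 0.142 to 0.265. Water-Ethanol mouse 15 was low in choroid plexus markers, at 660.5 against 772 to 793, and Water-Ethanol mouse 14 high in microglia markers, at 345 against 322.0 to 322.5.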

How the results depend on the processing

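The interaction test gave 0 calls in every fit that left out 1 mouse and in 11 of the 13 other alternatives, and 1 each with DESeq2 and with marker scores as covariates. Fits that left out 1 mouse gave 730 (without NW mouse 7) to 1489 genes (without NW mouse 11) at an unadjusted p under 0.05, 220 to 626 masking, 110 to 201 opposing and 9 to 24 changed only with both drugs. They gave 280 (without NE mouse 4) to 899 calls (without NW mouse 10) for the average ethanol effect, with 15 (without NE mouse 4) to 107 (without NW mouse 11) of them at that interaction p. For the average nicotine effect they gave 0 to 49 calls (without NW mouse 11; 14 without NE mouse 2), with 0 to 46 at that p. The called ethanol genes numbered 1093 with DESeq2, 219 without WW mice 20 and 21 and 1127 without NW mice 7 and 10. Of them 72 had that interaction p with DESeq2 and 19 without WW mice 20 and 21. DESeq2 called 109 genes for average nicotine, 69 of them with that p. Masking counted 210 genes with the GC correction, 214 without NW mice 7 and 10 and 165 at a minimum of 0.3. Opposing counted 298 without a filter, 51 with a filter of 1 CPM, 253 with the Rn45s covariate, 24 on log2(FPKM + 1), 92 with DESeq2, 397 at a minimum of 0.1 and 71 at 0.3. The class that needs both drugs counted 7 with the Rn45s covariate, on log2(FPKM + 1) and without NW mice 7 and 10, 2 without WW mice 20 and 21, and 25 at a minimum of 0.1. The causes of these shifts were not tested. For single genes 1601 of 1619 values kept their direction and side of the threshold and 16 passed it. No interaction was called in the main fit, so interaction values could not lose a call, and that count leaves out changes in size. With the Rn45s covariate the interaction moved from -0.94 to -0.017 for Pomc, from -1.27 to -0.23 for Mir6236 and from 0.65 to 1.2 for Sp8. The interaction of Rn45s turned positive on FPKM, 1.17 with a pseudocount of 1 and 2.00 with 0.1, where NW mouse 10, the highest by counts, is listed at 0. No paired analysis was possible because the groups share no replicate numbers. The 4 mice a group and whole-brain tissue limit what these fits can detect.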
